A study of Mus with 15 samples.

Results

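Broad domains of monoubiquitinated histone H2A (H2AK119ub1, here H2Aub) were examined in the chromatin of the mouse thalamus. A domain was defined by length alone. The H2Aub peaks of 9 of the 11 deposited lists were pooled, peaks that overlapped or touched were merged, and merged regions of 5000 bp or more on chromosomes 1 to 19 were kept. The lists of cKO cocaine replicate 1 and cKO saline replicate 1 took no part in this choice. Of 72813 merged regions, 539 (0.740%) were domains, and they held 6.03 of the 38.3 Mb of merged length (15.7%).

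The mark was measured by ChIPmentation, in which immunoprecipitated chromatin is fitted with sequencing adapters by the Tn5 transposase while still on the beads. Thalami came from mice aged 2 to 4 months, with 3 to 4 thalami per sample according to the labels, although the paper's methods state a lower minimum. Control mice (WT) carried the floxed Maged1 allele (Maged1 loxP) without Cre, and cKO mice carried it together with Vglut2-Cre, a recombinase expressed in glutamatergic neurons that use the vesicular transporter Vglut2. Other cells of the cKO thalamus therefore kept Maged1. After 3 days on which all mice were injected with saline, they were given intraperitoneal cocaine at 20 mg/kg, or saline again, on 5 days. For WT there were 3 libraries of each treatment, and for cKO there were 2 after cocaine and 3 after saline. Peak lists carry no expression values, so neither the tissue nor the deletion could be checked on marker genes here.

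H2Aub is placed on histone H2A by Polycomb repressive complex 1 (PRC1), whose RING1 proteins are the ubiquitin ligases. Polycomb complexes keep genes silent that a cell does not use, above all regulators of development, and they are known for blankets of repressive chromatin that run over whole gene clusters such as the Hox clusters. Deubiquitinating enzymes remove the mark again. In whole tissue, more cells carrying the mark at a place and more of the mark per cell cannot be told apart.

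Domains ranged from 5000 to 107689 bp, with a median of 7698 bp and quartiles of 5907 and 13352.5 bp. There were 204 domains of 10 kb or more, 59 of 20 kb or more and 5 of 50 kb or more. All 5 of the last group lay in the Hox clusters. Neighbouring domains were at times close together: 43 domains had the next one within 5 kb. Just inside the length limit were the domains at Eomes (5000 bp), Kcnk9 (5008 bp) and Ass1 (5026 bp), and just outside it were regions at Gata5 (4986 bp), Lemd1 (4985 bp) and Mdfi (4974 bp). The limit thus falls within a continuum of lengths, and regions of 2 to 5 kb numbered 1860.

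The longest domain ran along chr11:96250267-96357955 (mm10) and enclosed Hoxb2 to Hoxb9 whole. Hox genes encode the homeodomain factors that give the body axis and the hindbrain and spinal cord their regional identity. Peaks covered 97.9, 87.9 and 84.6% of this domain in the WT cocaine libraries, 86.5, 72.0 and 83.3% in WT saline, 84.4% in cKO cocaine replicate 2, and 80.3 and 63.7% in cKO saline replicates 2 and 3. Each of the 9 libraries taken alone thus covered the larger part of it, while 40.4% of its bases lay under a peak in all 9, and the lowest WT cocaine value lay under the highest WT saline value. Fragmentation varied far more than coverage: WT cocaine replicate 1 crossed the domain in 3 peaks, while the other libraries of the 9 needed 18 to 41. In the 2 lists that did not choose the domains, 67.4% (cKO cocaine replicate 1, 34 peaks) and 59.7% (cKO saline replicate 1, 39 peaks) of it lay under peaks. The map of the Hoxb domain shows these breaks spread over its whole length.

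**Figure D1:**
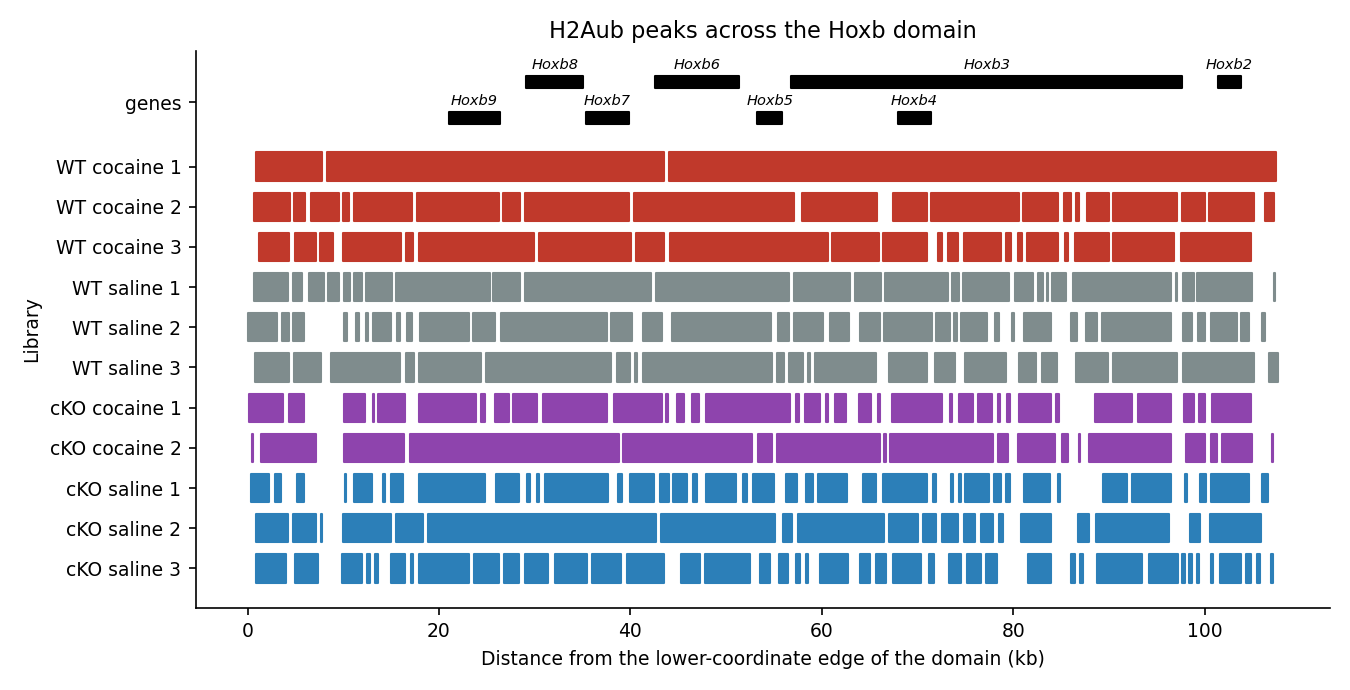
Peaks of each of the 11 libraries across the longest domain, with distance from its lower-coordinate edge in kb on the horizontal axis, 1 row per library coloured by group, and genes as black bars. WT cocaine 1 crossed the domain in 3 peaks and cKO saline 3 in 41.

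The other Hox clusters followed in order of length. The domain over Hoxc4 to Hoxc10 (chr15:102959075-103043575) was 84501 bp long, that over Hoxd3, Hoxd8 to Hoxd13 and the neighbouring homeobox gene Evx2 (chr2:74653717-74719381) 65665 bp, and that over Hoxa9 to Hoxa13 (chr6:52221946-52277811) 55866 bp. Their mean covered shares over the 9 lists were 77.9, 83.7 and 88.3%. Of the 39 Hox genes annotated on these chromosomes, 38 overlapped a domain and 37 lay wholly inside one. Hoxd1 was the exception. WT cocaine replicate 1 crossed the Hoxd domain in a single peak, against 7 to 22 peaks in the other libraries of the 9.

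Among the 14 domains described next in length the genes were again mostly transcription factors that pattern tissues other than the adult thalamus. They lay at Tfap2a (neural crest, 46095 bp), Atoh8 (42669 bp), Hand2 (heart and limb, 40848 bp), Tbx3 (35647 bp), Vax2 (ventral eye), Dlx5 and Dlx6 (forebrain inhibitory neurons and jaw), Pax6 (eye and forebrain), Tbx15, Dlx1 and Dlx2 with Metap1d, Hoxc11 and Hoxc12, Nkx2-3 (gut and spleen), Pax3 (neural crest and muscle), Gata3 (T cells and inner ear) and Cdx2 with Urad (intestine). Mean covered shares over the 9 lists ran from 57.8% at Atoh8 to 86.4% at Dlx1 and Dlx2. The Atoh8 domain stood lowest in this group. Its covered share was 92.2, 68.5 and 61.2% in WT cocaine, 56.0, 34.8 and 61.2% in WT saline, 75.2% in cKO cocaine replicate 2, and 47.7 and 23.4% in cKO saline replicates 2 and 3. At each of the 18 longest domains shown WT cocaine replicate 1 held 88.8% or more, as the plot of covered share over these domains shows, and 5 of them (Hoxd, Tbx3, Tbx15, Dlx1 and Dlx2, Cdx2) were crossed by a single peak in that library.

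**Figure D2:**
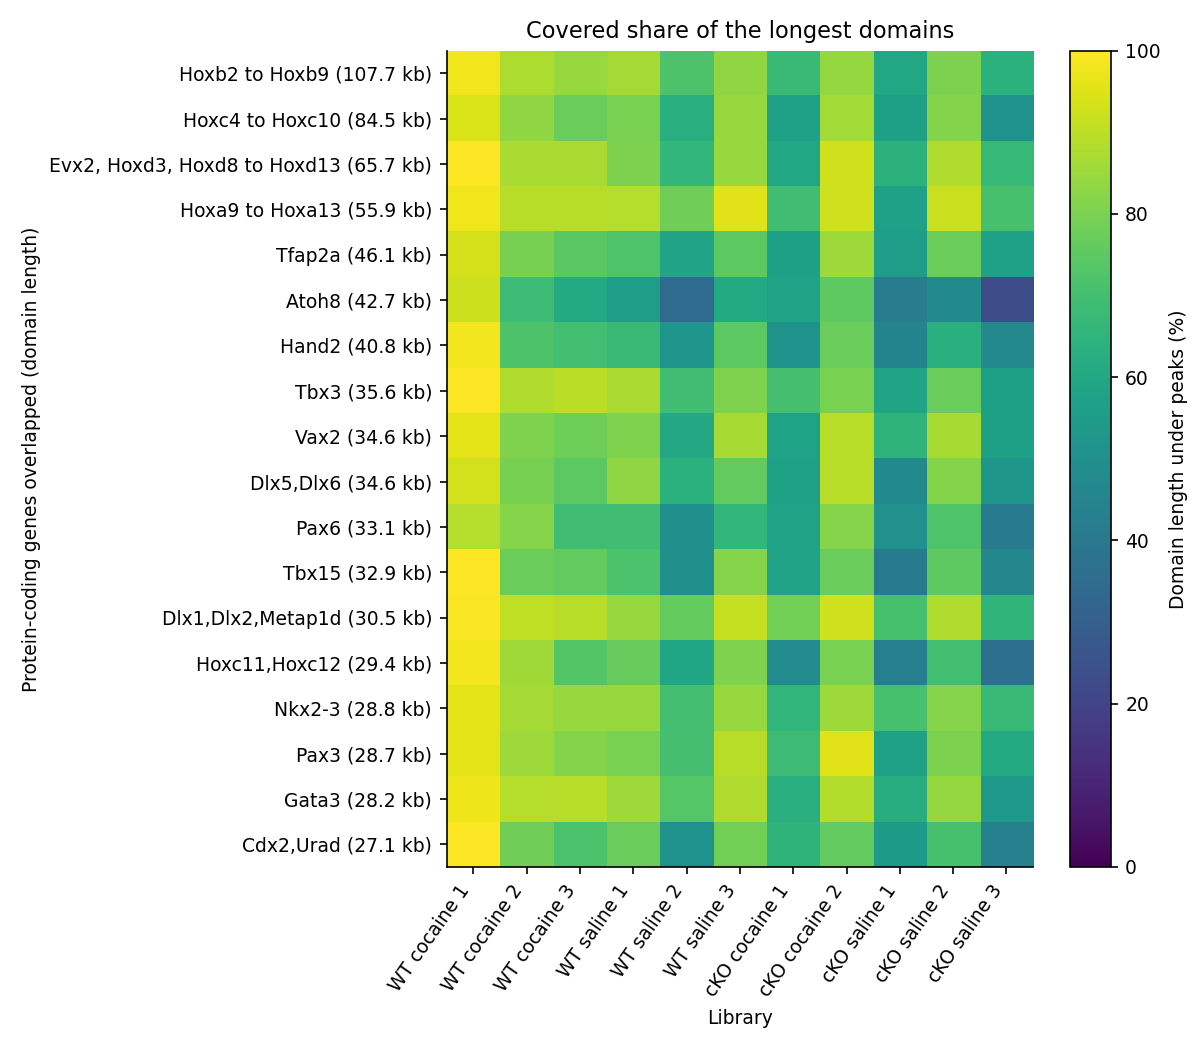
Share of each of 18 of the 20 longest domains under peaks (colour, 0 to 100%) in the 11 libraries (columns), with domains in order of length from the top and named by the protein-coding genes they overlap. The column of WT cocaine 1 is the brightest (88.8 to 99.8%), the columns of WT saline 2, cKO saline 1 and cKO saline 3 are among the darkest, and the darkest cell is that of Atoh8 in cKO saline 3 (23.4%).

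Length and evenness of coverage were not the same property. By mean covered share over the 9 lists, the fullest domain was that of Lbx1 (chr19:45221125-45246177, 94.1%), a homeobox gene of spinal cord interneurons and limb muscle precursors. Its covered share was 97.6, 96.4 and 94.0% in WT cocaine, 96.9, 90.7 and 94.5% in WT saline, 96.1% in cKO cocaine replicate 2 and 93.3 and 87.5% in cKO saline replicates 2 and 3. In the 2 lists outside the choice it was 89.5 and 85.4%. Hence every library covered most of the domain, in 1 to 5 peaks, and 83.4% of its bases lay under a peak in all 9 lists. The domain at Uncx, a homeobox gene of the somites, was next among domains with a coding gene (91.1%). Between them came a domain of 5685 bp on chromosome 17 (chr17:39843127-39848811, 92.3%) with no coding gene, which was covered to 100% in both outside lists. The annotation places Rn18s-rs5 there, a pseudogene of 18S ribosomal RNA. Ribosomal RNA genes exist in many copies, and whether reads of other copies were placed here was not tested.

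At the other end stood the domains in Wwox, a tumour suppressor gene (mean covered share 18.4%), Prdm16, a regulator of brown fat and neural stem cells (the member at chr4:154421495-154426841, 22.9%), and Atp12a, a proton pump gene (23.2%). None of these 3 had a base under a peak in all 9 lists. The Wwox domain was covered to 57.7, 22.5 and 53.1% in WT cocaine, to 6.2, 4.1 and 13.0% in WT saline, to 8.6% in cKO cocaine replicate 2, and not at all in cKO saline replicates 2 and 3. The outside lists held 42.7 and 40.4% of it.

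Over all members, 505 of the 539 domains (93.7%) had a peak in each of the 9 lists, and no domain had peaks in fewer than 7. At the level of bases the overlap was less complete: 24.8% of domain bases lay under a peak in all 9 lists and 7.08% in only 1. For 141 domains no base was shared by all 9 lists, and for 37 at least 50% of the bases were. A single peak of 5000 bp or more was present in at least 1 list at 376 domains (69.8%), in 5 or more lists at 178 and in all 9 at 47. The other 163 domains were assembled from shorter peaks of several libraries. WT cocaine replicate 1 supplied much of the length: without it the same procedure gave 458 domains, and 436 of the 539 overlapped one of these.

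The 2 lists that did not choose the domains gave a view independent of the rule. They were the longest of the series, with 54201 and 79872 peaks on chromosomes 1 to 19, against 7235 to 25972 in the 9 others. cKO cocaine replicate 1 had a peak in 538 of the 539 domains and covered 58.7% of their length, and cKO saline replicate 1 had a peak in 536 and covered 52.3%. Of the shorter merged regions they covered 16.2 and 14.8% of the length. The share rose over the length classes. In regions under 500 bp it was 6.60 and 6.82%, in regions of 2 to 5 kb 38.8 and 33.7%, in domains of 5 to 10 kb 50.7 and 44.6%, in those of 10 to 20 kb 63.0 and 55.6%, and in those of 20 kb or more 63.6 and 57.9%. The change was gradual, with no step at the 5000 bp limit, and both lists gave the same order of classes.

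**Figure D3:**
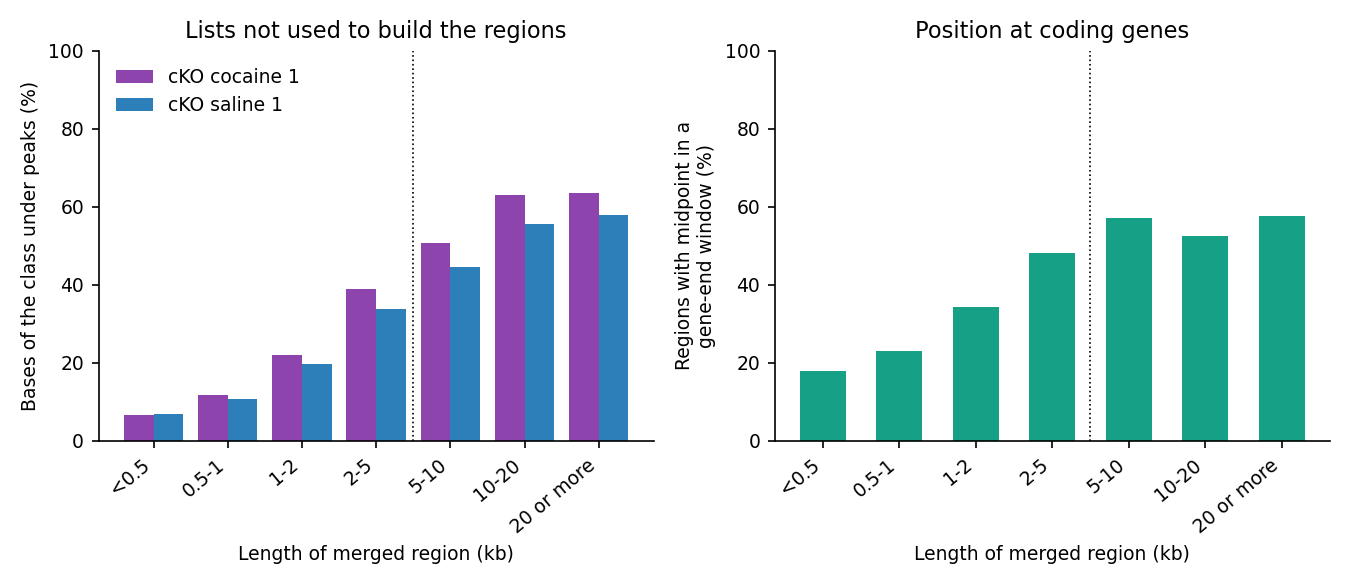
Left, share of bases under peaks of the 2 lists that did not build the regions, by length class of merged region in kb. Right, share of regions whose midpoint lay in a gene-end window of a coding gene. The dotted line marks the 5 kb limit, and in the left panel both lists rise from under 7% in the shortest class to 57.9 and 63.6% in the longest.

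Bases that more of the 9 lists agreed on were also found more often in the outside lists. Where 1 of the 9 lists had a peak, cKO cocaine replicate 1 covered 16.5% of the bases and cKO saline replicate 1 covered 18.6%. Where all 9 had one, the values were 91.5 and 82.9%, and the intermediate classes rose in order. Along the domains, coverage was highest in the middle. With each domain cut into 10 equal parts, the outside lists covered 31.3 and 27.9% of part 1, at the lower-coordinate edge, and 71.1 and 63.5% of part 5. The same fall toward both edges was present in the 9 lists that set the edges.

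Coverage of the 539 domains differed between libraries, as the plot of covered share and fragmentation by library shows. These values are a description, since 9 of the 11 lists chose the domains. Covered shares were 89.8, 75.9 and 69.9% in WT cocaine (78.5 ± 10.2%, SD, n = 3), 68.5, 52.6 and 67.5% in WT saline (62.9 ± 8.94%, SD, n = 3), 58.7 and 72.8% in cKO cocaine (65.8 ± 9.98%, SD, n = 2) and 52.3, 63.5 and 42.4% in cKO saline (52.7 ± 10.5%, SD, n = 3). The WT cocaine values lay above the WT saline values without overlap, and the cKO groups overlapped. Fragmentation, the mean number of peaks per domain with any peak, was 1.72, 3.08 and 3.20 in WT cocaine, 4.04, 4.01 and 3.33 in WT saline, 3.56 and 3.04 in cKO cocaine, and 3.95, 3.27 and 3.96 in cKO saline. A single peak represented the domain at 48.2% of domains in WT cocaine replicate 1 and at 7.05 to 17.6% in the other 10 libraries. Over the 9 lists the covered share followed the number of peaks on chromosomes 1 to 19 (Pearson r = 0.771, Spearman rho = 0.867), while the 2 outside lists had the most peaks and covered 58.7 and 52.3%. The correlation is a description over libraries whose read depth is unknown and which share the rule.

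**Figure D4:**
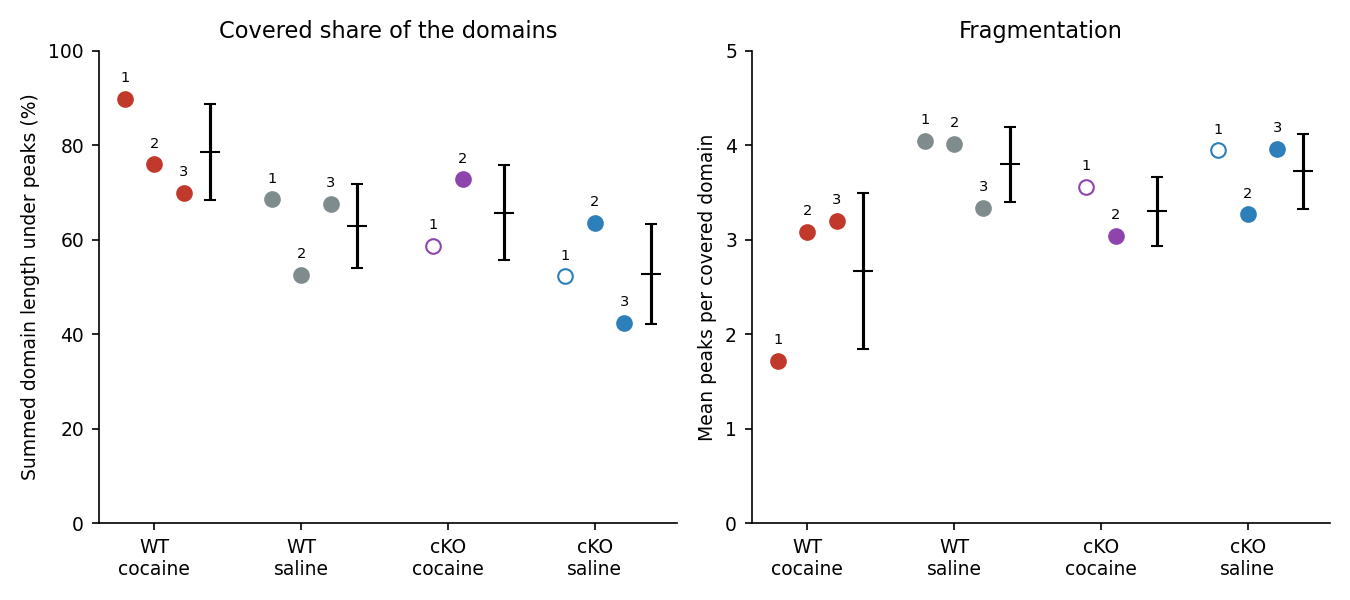
Left, summed length of the 539 domains under peaks in each library (%). Right, mean number of peaks per domain that held any. Points are libraries with their replicate number, open points are the 2 lists that did not choose the domains, and bars give mean ± SD of a group (n = 3, or 2 for cKO cocaine). WT cocaine 1 is highest on the left (89.8%) and lowest on the right (1.72).

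Within domains peaks were wider than elsewhere in the same list, which the length rule favours. Median widths inside were 3887 bp in WT cocaine replicate 1 and 698 to 1267 bp in the other lists. Outside they ran from 196 to 412 bp over the 11 lists. The widest single peak of the series measured 69928 bp, in WT cocaine replicate 1, and the widest in the other libraries measured 16819 to 33478 bp. Peak strength was not part of the rule. The median fold enrichment over input that the authors' caller gave was higher inside than outside in each of the 11 lists. It was 3.58 against 3.09 in WT cocaine replicate 1, the lowest value inside, and 4.41 against 3.95 in cKO cocaine replicate 1, the highest. Domains took 11.5 (cKO saline replicate 1) to 60.5% (cKO saline replicate 3) of all bases that a library had under peaks.

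Whether cocaine was associated with fuller domains was tested on domains that the libraries compared had not helped to choose. For WT, domains of 5000 bp or more were rebuilt from the 3 cKO lists among the 9 (301 domains, 3.32 Mb). The covered share of these was 96.7, 87.5 and 84.6% in WT cocaine and 84.2, 70.3 and 84.4% in WT saline. The lowest cocaine library was thus level with the 2 higher saline libraries. The means were 89.6 ± 6.32% and 79.6 ± 8.09% (SD, n = 3 each), a difference of 10.0 ± 5.93 percentage points (SE), with an exact permutation p = 0.1 (two-sided), the smallest that 3 against 3 libraries can give, and 0.2 after Benjamini-Hochberg adjustment over 4 tests. The number of pieces was 2.02 ± 0.654 with cocaine and 3.14 ± 0.632 with saline, in peaks per covered domain (SD, n = 3 each), a difference of -1.12 ± 0.525 (SE, exact permutation p = 0.1, adjusted 0.2). The exact permutation test could not pass 0.05 with these numbers of libraries. Without WT saline replicate 2 the difference in covered share was 5.33 points, and without WT cocaine replicate 1 it was 6.44 points, with a difference in pieces of -0.751.

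For cKO, domains were rebuilt from the 6 WT lists (503 domains, 5.61 Mb). Their covered share was 60.6 and 74.5% in cKO cocaine and 53.8, 65.5 and 44.5% in cKO saline. Thus cKO saline replicate 2 lay above cKO cocaine replicate 1. The means of 67.6 ± 9.83% (SD, n = 2) and 54.6 ± 10.5% (SD, n = 3) differed by 13.0 ± 9.24 points (SE), with an exact permutation p = 0.3 (smallest possible 0.1, adjusted 0.3). Pieces per covered domain differed by -0.465 ± 0.381 (SE, exact permutation p = 0.3, adjusted 0.3), by -0.171 without cKO cocaine replicate 2, by -0.759 without cKO cocaine replicate 1 and by -0.706 without cKO saline replicate 2. It was -1.13 over rebuilt domains of 10000 bp or more. With equal numbers of peaks taken from every list, the difference in pieces was -1.01 and that in covered share -2.03 points. With all peaks the difference in covered share was 6.02 points without cKO cocaine replicate 2, 19.9 without cKO cocaine replicate 1, 7.92 without cKO saline replicate 3 and 19.5 without both libraries numbered 1. Whether the effect of cocaine differed between the genotypes was not tested.

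Taken one by one, 78 of the 301 rebuilt WT domains (25.9%) had a covered share in all 3 cocaine libraries above that in all 3 saline libraries, and 0 had the reverse. Among all 26052 regions rebuilt in the same way, whatever their length, the shares were 5.2% and 0.234%. The share of regions with the cocaine-higher pattern depended on length, and was 29.1% for regions of 2 to 5 kb, 30.4% for domains of 5 to 10 kb and 20.3% for domains of 10 kb or more. Domains were thus not set apart from the class below them in this respect. In cKO, 130 of the 503 domains (25.8%) were higher in both cocaine libraries than in all 3 saline libraries and 0 showed the reverse, against 2.79% and 0.0745% of all 61735 rebuilt regions, and 23.0% of those of 2 to 5 kb. In equal numbers of peaks, an alternative chosen after seeing the data like those that leave out a library, 68 of 297 WT domains (22.9%) and 5 of 464 cKO domains (1.08%), rebuilt from the shortened lists, had this order, against 4.29% and 0.142% of all regions. Leaving out 1 library gave 79 to 146 of 301 in WT and 131 to 328 of 503 in cKO, since fewer libraries must then be in order, and the share of all regions rose with it, to between 5.77 and 10.7% in WT and between 2.91 and 11.9% in cKO. In WT the count was 146 without cocaine replicate 3, 124 without saline replicate 1 and 127 without saline replicate 3, and in cKO it was 328 without cocaine replicate 1, 211 without saline replicate 1 and 291 without saline replicate 2.

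The domains with the widest gap in WT were chosen after their values were seen. A stretch of 5042 bp at Pax6 (chr2:105679247-105684288) was covered to 85.4, 87.4 and 73.9% with cocaine and to 57.1, 14.1 and 51.3% with saline. The domain at Tnfaip2, a gene induced by tumour necrosis factor, had a mean covered share 38.5 points higher with cocaine. That at Fst, which encodes the activin antagonist follistatin, was covered to 100, 79.8 and 74.3% with cocaine and to 49.9, 40.5 and 62.4% with saline. WT saline replicate 2 was the lowest library at Pax6, Tnfaip2 (30.9%) and Fst. It was not the lowest at Dll4, a Notch ligand gene, where saline values were 85.9, 60.6 and 38.7% and cocaine values 100, 92.4 and 91.4%. Next came Nkx2-2, Foxe1, Nkx2-9, Comp, Etv4 and Atoh8. WT saline replicate 2 was the lowest library at each of these but Comp, where WT saline replicate 3 was level with it (53.3%). In cKO the widest gap was at Fbln2, which encodes the matrix protein fibulin 2, with 57.6 and 80.9% with cocaine against at most 37.2% with saline. Of the 78 WT domains higher with cocaine without overlap, 25 (32.1%) overlapped one of the 130 such cKO domains. Those at Tnfaip2, Dll4, Nkx2-9, Etv4 and Atoh8 did, and those at Pax6, Fst, Nkx2-2, Foxe1 and Comp did not.

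Most domains lay at genes. A protein-coding gene was overlapped by 455 domains (84.4%), and 422 (78.3%) reached a gene-end window. Such a window ran from 5 kb outside to 2 kb inside either end of a coding gene, since the gene table gave no strand. No sampling interval is given, since the domains are a full set and neighbours can lie close together. In the alternatives the share ran from 67.6 to 89.1%. A long region reaches such a window more easily, so midpoints were compared as well: 301 domain midpoints (55.8%) lay in a window, against 20.6% of the midpoints of shorter regions and 48.1% for regions of 2 to 5 kb. In all, 483 of 20665 coding genes (2.34%) overlapped a domain, and this share is the background for the gene lists that follow. Of these genes 177 lay wholly inside a domain, and 251 had at least 50% of their span in domains. Genes in domains were short, with a median span of 10834 bp against 17491 bp for all coding genes.

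Of the 25 lists examined, those of homeobox genes are given first. All 12 LIM homeobox genes overlapped a domain, among them Lhx2, Lmx1b, Lhx6 and Lhx1, which specify neuron types. So did all 8 Dlx and Gsx genes, which drive the inhibitory neuron program of the ventral forebrain. The Nkx list had 12 of 14 members in domains (Nkx2-3, Nkx2-1, Nkx2-5 and Nkx3-2 in the longest), the Iroquois list 5 of 6, and the list of Lbx, Uncx, Barx, Barhl, Tlx and related genes 41 of 53. Among Pax genes 7 of 9 were included and Pax4 and Pax8 were not. The plot of gene lists shows each of these above the 2.34% of all coding genes.

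Other developmental families were included in part. Counts were 4 of 5 Gata genes, 18 of 28 neural bHLH genes (Hand2, Twist1, Olig2 and Neurod2 in the longest domains), 10 of 16 T-box genes, 20 of 41 forkhead genes (Foxf1, Foxa1, Foxa2 and Foxf2) and 7 of 18 Sox genes. The forkhead genes without a domain included all listed Foxp, Foxk, Foxj and Foxn members and all listed Foxo members but Foxo6. Gata5 missed the limit by the length given above. In the Zic, Otx, Emx and En list 6 of 10 had a domain, and the 4 without one were Zic1, Zic2, Zic4 and Zic5.

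Among secreted signals of development, domains overlapped 9 of 19 Wnt genes (Wnt11, Wnt10a, Wnt7b and Wnt8b in the longest domains) and 7 of 23 Bmp, Gdf and hedgehog genes, among them Bmp4 and all 3 hedgehog genes, Shh, Ihh and Dhh. Of the cyclin-dependent kinase inhibitor genes, Cdkn2a and its neighbour Cdkn2b, a well known Polycomb target locus that halts cell division, were the 2 of 7 in domains. Domains with at least 1 gene of the 14 transcription factor lists made up 18 of the 20 longest, 123 of the 204 domains of 10 kb or more (60.3%), and 51 of the 335 domains of 5 to 10 kb (15.2%). Thus most domains of 5 to 10 kb held no gene of these 14 lists.

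**Figure D5:**
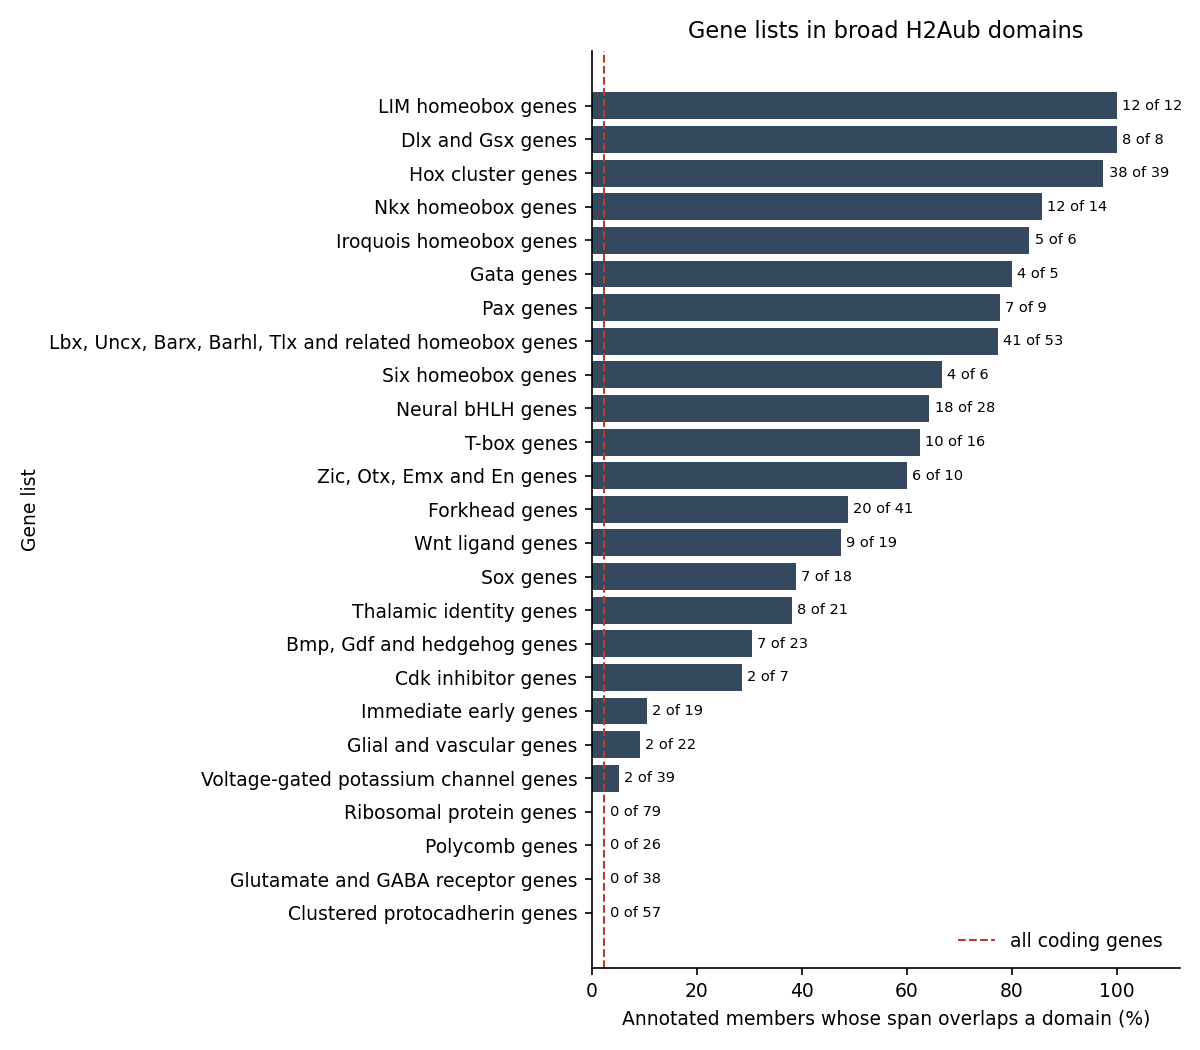
Share of the annotated members of each gene list whose span overlapped a domain, with counts beside the bars. The dashed line marks the 2.34% of all 20665 coding genes, and bars reach 100% for LIM homeobox and for Dlx and Gsx genes and 0 for ribosomal protein, Polycomb, glutamate and GABA receptor and clustered protocadherin genes.

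Of 21 thalamic identity genes 8 overlapped a domain. These were Lhx2, Pou4f1, Gbx2, Lhx9, Sox14, Nkx2-2, Lef1 and Zfhx3, of which Gbx2, Lhx2 and Lhx9 pattern the developing thalamus and Pou4f1 marks the habenula beside it. Tcf7l2 and Slc17a6, the gene of Vglut2 itself, were among the 13 without a domain, as were Rora, Prox1 and Sox2. The domain at Lhx2 measured 25242 bp (mean covered share 72.5%) and that at Gbx2 17400 bp (66.0%). The cells that carried the mark at these genes cannot be told from whole tissue.

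Lists of genes that mature neurons use were examined as well. None of the 38 glutamate and GABA receptor genes and none of the 57 clustered protocadherin genes overlapped a domain, and 2 of 39 voltage-gated potassium channel genes (5.13%) did (Kcnh3 and Kcnc4). Among 19 immediate early genes, which neurons induce on activation, 2 (10.5%) did, against 2.34% of all coding genes. Of these, Nr4a2 (domain of 9609 bp, mean covered share 59.7%) and Egr3 (6142 bp, 71.3%) were included, and Fos, Arc and Npas4 were not. Among 22 glial and vascular genes, Pdgfra of oligodendrocyte precursors and Flt1 of endothelial cells overlapped a domain. None of the 79 ribosomal protein genes and none of the 26 Polycomb genes was included. A count of 0 here says that no merged region of 5000 bp or more touched the gene, not that H2Aub was absent from it.

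Noncoding genes in domains were mostly long noncoding RNAs, of which 274 of 12408 (2.21%) overlapped one. The 16 microRNA genes inside domains (1.41% of 1136) included those embedded in the Hox clusters, Mir10a, Mir10b, Mir196a-1, Mir196a-2, Mir196b and Mir615, and, outside them, Mir96 and Mir183 of sensory organs, the neuronal Mir124a-1 and the endocrine Mir375. Of 391 annotated transfer RNA genes 15 (3.84%) lay in domains, all on chromosomes 3 and 13. Transfer RNA genes exist in many similar copies, and whether reads were shared among them was not tested.

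A group of 70 domains lay more than 5 kb from any coding gene, 25 of them more than 50 kb away. The longest was chr6:51167932-51190721 (22790 bp, 32235 bp from the nearest coding gene), covered to 92.0, 68.0 and 75.9% in WT cocaine, 69.2, 55.3 and 89.1% in WT saline, 90.6% in cKO cocaine replicate 2 and 86.4 and 38.7% in cKO saline replicates 2 and 3. The groups overlapped there. Next were chr5:67220676-67235704 (15029 bp, mean covered share 72.6%), which encloses the noncoding gene Gm33293, and chr3:96324801-96339752 (14952 bp, 67.3%), which holds 2 of the transfer RNA genes. The domain at Sox14, a neural transcription factor gene, was of like length and was covered to 83.6%.

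Per 1000 coding genes, chromosomes held from 10.4 domains (chromosome 17) to 39.8 (chromosome 13). Domains were thus present on each of the 19 chromosomes.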

How the data were processed

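According to the submitters' processing notes and the paper's methods, reads were trimmed (Cutadapt), mapped with Bowtie2 (2.3.4.1) to mm10 and turned into broad peaks with MACS2 (2.1.1.20160309.3) against total input, in 1 list per library without pooling of replicates. The 4 input libraries were not analysed here. Each deposited list gave peak start and end, a score derived by the caller from q, the fold enrichment over input, which is a linear ratio, and the −log10 p and −log10 q. The authors' lists ran to a q of 0.0997. They hold no read counts, so the depth behind each list is unknown, and no interval for counting error could be given for a covered share. A list may be longer because of depth, and equal numbers of peaks per list (the 7235 strongest by p) were run as an alternative.

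Only positions entered the main results. Peaks of 9 lists were merged where they overlapped or touched, and regions of 5000 bp or more on chromosomes 1 to 19 were kept. The members, the gene lists and the tests were chosen with earlier results of these data known. For each library the covered share (bases of the domains under its peaks), the number of peaks per covered domain and the genes inside were computed. Genes came from a RefSeq table of GRCm38.p6, whose coordinates are those of mm10, matched by position (20665 protein-coding genes on chromosomes 1 to 19). The table gave no strand. Groups were taken from GEO's labels. Group means were compared by exact permutation tests over libraries (two-sided), on domains rebuilt from the lists of the other genotype, and the 4 tests were adjusted together by the method of Benjamini and Hochberg. The study's reporting notes describe replicates as biologically independent, each a pool of thalami, so p-values measure the spread between such pools. Genes named are those in the 20 longest domains, up to 4 members of each list in its longest domains, the domains beside the length limit, those with the highest and lowest coverage, and, where stated, genes chosen after their values were seen. Interval functions were tested on simulated intervals. Python 3.11.15, numpy 2.4.6, pandas 2.3.3 and scipy 1.17.1 were used. Alternatives covered the lists pooled, the q threshold, the minimum length, the gap bridged, the bases kept, the gene set, single libraries left out and the replicate number as a block. A few domains are not reported here.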

Additional observations from a re-analysis of the deposited data

How the results depend on the processing

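The number of domains was 539. It was 204 at a minimum length of 10000 bp and 856 with peaks up to 500 bp apart joined, and it stayed between 386 (bases in at least 2 lists) and 776 (minimum 4000 bp) in the other alternatives, with 458 to 534 when single lists were left out. The share reaching a gene-end window (78.3%) was 82.0% at q up to 0.01, 73.7% at 4000 bp, 86.8% at 10000 bp, 67.6% with gaps joined, 83.2% for bases in at least 2 lists, 89.1% with all annotated genes and 84.4% with the gene span in place of its ends. The WT differences in covered share and pieces kept their direction in the alternatives run on rebuilt domains (5.33 to 12.5 points and -1.41 to -0.751 peaks), and so did the cKO difference in pieces (-1.13 to -0.171). On the 539 domains, which the WT lists helped to choose, the WT difference in covered share was 15.7 points and is no support for its direction. The cKO difference in covered share turned to -2.03 points (exact permutation p = 1) with equal numbers of peaks, and the cause was not tested. Of domains higher with cocaine without overlap, the counts with 1 library left out ran from 79 to 146 in WT and from 131 to 328 in cKO. In cKO they were 399 without both libraries numbered 1 and 5 with equal numbers of peaks. The share of all regions with this order was 5.77 to 10.7% in WT and 2.91 to 11.9% in cKO with 1 library left out, 11.9% without both and 0.142% with equal numbers. With the replicate block (an exact sign-flip test) the WT differences were 10.0 points and -1.12 peaks (p = 0.25, the smallest possible for 3 pairs), and over 2 cKO pairs they were 7.92 points and -0.327 peaks (p = 0.5, the smallest possible). Deviations of same-numbered WT libraries correlated over domains at r = 0.126, 0.158 and -0.0953, which are not all above 0.1. The 2 cKO pairs gave 0.589 and 0.536. With 2 cKO cocaine libraries the deviations mirror each other, so the swapped numbers gave -0.589 and -0.536. These are too few pairs to decide, so the numbers were not taken as pairs. Depth is unknown, and no difference in coverage could be corrected for it.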

Other observations

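Several groups of genes outside the lists above stood out when the domains were read through. They were chosen after the domains were seen, so their counts are a description. Genes that give neurons a transmitter other than glutamate were among them: Gad1 and Gad2, which make GABA (domains of 11881 and 9366 bp), Slc32a1, which loads GABA and glycine into vesicles (11059 bp), Slc6a5, the neuronal glycine transporter (10618 bp), and the nested pair Chat and Slc18a3, which make and load acetylcholine (5421 bp). These were 6 of 18 such genes. The catecholamine and serotonin genes Th, Dbh, Slc6a3, Tph2 and Slc6a4 had no domain, and none of the 3 vesicular glutamate transporter genes had one. The Gad1 domain was covered to 78.8% on average over the 9 lists and the Slc32a1 domain to 79.0%, while the Gad2 domain was covered to 55.2%. Retinoic acid enzymes had 4 of 8 members in domains, the synthetic Aldh1a2 and the degrading Cyp26a1, Cyp26b1 and Cyp26c1. The AP-2 factors had 4 of 5 and the Sp5 to Sp9 factors 4 of 5, against 2.34% of all coding genes.

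Although Rybp, a PRC1 subunit, did not overlap a domain itself, 10 domains lay within 300 kb of it (chr6:99992951-100508710, 82.1 kb in all), 8 of them on the lower-coordinate side, and none overlapped a coding gene. Their mean covered shares over the 9 lists ran from 26.5 to 60.0%. The fullest, at the noncoding gene 2010109P13Rik, was covered to 100, 66.2 and 68.8% in WT cocaine, 72.3, 44.9 and 78.7% in WT saline, 54.7% in cKO cocaine replicate 2, and 38.5 and 15.7% in cKO saline replicates 2 and 3. A similar run lay along Prdm16 on chromosome 4, a gene that 8 separate domains overlapped and that had 19.7% of its span of 321239 bp inside them.

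On chromosome X, outside the rule, a merged region of 6703 bp lay at the homeobox gene Esx1. It was covered to 74.5, 44.1 and 31.7% in WT cocaine, 57.9, 34.4 and 47.2% in WT saline, 56.6 and 44.8% in cKO cocaine, and 45.8, 36.1 and 27.5% in cKO saline. The groups overlapped.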
